A study of Mus musculus with 6 samples.

Results

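Proneural and neuronal differentiation genes of the basic helix-loop-helix (bHLH) class were examined in 6 RNA libraries of mouse brain tumors. The tumors were induced by in utero electroporation, where an electric pulse carries plasmids into cells of the embryonic brain. The members were 9 listed genes of the 24537 rows in the count table. They were the neurogenins Neurog1 and Neurog2, the NeuroD genes Neurod1, Neurod2, Neurod4 and Neurod6, and the related genes Bhlhe22, Hes6 and Tcf4. All 6 libraries were from tumors of CD-1 IGS mice that carried PdgfraD482V, a mutant of the PDGF receptor alpha gene, with DNp53, a dominant-negative p53. For 3 of the libraries FOXR2, a forkhead transcription factor, was added, and the other 3 were titled Control. Animal age, the promoter that drove the constructs and the number of animals behind each sample were not given in the sources used here. Groups follow the sample titles and are called titled FOXR2 and titled Control, because a sheet deposited beside the counts assigns the opposite group to 6 of 6 libraries. Should that sheet hold, each direction below is inverted while its p-value stays the same.

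Proneural bHLH proteins bind DNA as dimers with a broadly expressed E protein at a short motif called the E-box, and push neural progenitors out of the cell cycle toward a neuronal fate. Neurogenins act in dividing progenitors of the dorsal forebrain and switch on the NeuroD genes, which act later in newborn neurons. Id proteins lack the DNA-binding region and sequester E proteins, and Hes and Hey proteins repress proneural genes downstream of Notch.

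The libraries held 13429489 to 17927025 counts. A level of 3 counts, taken as the floor, equalled 0.174 to 0.219 CPM, a count expressed per fixed library total after adjustment by trimmed-mean (TMM) factors, and it covers counting error only. Counts on the mouse Foxr2 row were 22, 1 and 7 for titled FOXR2 and 4, 10 and 7 for titled Control, so that row did not settle the labels; reads of a construct need not be counted on it. The tissue label was checked on markers. Olig2, which defines the oligodendrocyte lineage, stood at 446 to 813 CPM in the 6 libraries, and the 8 oligodendrocyte precursor markers together at 5283 to 9258. That sum includes Pdgfra, the electroporated gene, at 2018 to 3599 CPM. The part of construct reads in it was not tested. The 8 mature neuron markers summed to 656 to 933 CPM, most of it from Map2 at 462 to 805. Rbfox3, which defines mature neurons, was at 10.2, 3.16 and 2.19 CPM for titled FOXR2 and lower, at 0.18, 0.358 and 1.28, for titled Control, with no overlap. Of the 8 mature neuron markers, 4 lay higher for titled FOXR2 with no overlap, as did 13.1% of all genes tested. Nefl and Nefm, of the same list, lay lower for titled FOXR2, also with no overlap. The share of all genes not overlapping in that lower direction was not counted. The part of neuronal RNA in the results below was not tested. Markers of vessels, blood and microglia were low for tumor tissue. The 6 endothelial markers summed to 1.39 to 15.2 CPM, and 4 of 5 red blood cell genes had 0 counts in all 6 libraries. The 10 microglia and macrophage markers summed to 1128 CPM in FOXR2 replicate 2 and to 4.76 to 13.9 elsewhere. Whether the libraries hold whole tumor tissue was not tested.

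Sequences just upstream of transcription start are shown for Hes6 and Neurod1, which had reads, and for Neurog1 and Neurog2, which had none. Each window is the 250 bases before the start in RefSeq on GRCm38.p6, read 5′ to 3′ on the gene's strand, with every E-box (CANNTG, which reads the same on both strands) in capitals. The windows lie at chr1:91414039-91414288 (minus strand), chr2:79456637-79456886 (minus strand), chr13:56252181-56252430 (minus strand) and chr3:127632886-127633135 (plus strand).
Hes6: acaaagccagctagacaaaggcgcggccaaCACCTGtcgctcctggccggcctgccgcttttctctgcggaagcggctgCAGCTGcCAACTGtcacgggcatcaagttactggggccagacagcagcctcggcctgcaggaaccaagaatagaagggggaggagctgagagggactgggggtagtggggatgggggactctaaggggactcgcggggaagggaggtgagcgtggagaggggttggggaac
Neurod1: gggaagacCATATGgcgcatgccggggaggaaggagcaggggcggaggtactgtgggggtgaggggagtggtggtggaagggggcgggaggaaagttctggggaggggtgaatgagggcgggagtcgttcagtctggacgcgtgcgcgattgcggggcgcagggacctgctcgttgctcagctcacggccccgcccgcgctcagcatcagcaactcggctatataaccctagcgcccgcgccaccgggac
Neurog1: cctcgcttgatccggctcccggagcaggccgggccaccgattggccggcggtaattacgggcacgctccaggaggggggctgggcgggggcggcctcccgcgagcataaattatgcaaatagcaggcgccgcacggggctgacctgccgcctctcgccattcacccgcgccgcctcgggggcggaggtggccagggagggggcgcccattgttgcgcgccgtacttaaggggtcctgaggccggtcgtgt
Neurog2: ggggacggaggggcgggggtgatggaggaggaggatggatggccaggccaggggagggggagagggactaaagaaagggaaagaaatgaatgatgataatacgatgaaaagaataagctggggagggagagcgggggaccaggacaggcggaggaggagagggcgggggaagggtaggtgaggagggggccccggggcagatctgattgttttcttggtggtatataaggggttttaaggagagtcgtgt

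The Hes6 window held 3 E-boxes, whose first bases lie at -220, -171 and -164 from the start, and the one at -171 was CAGCTG. A second annotated Hes6 start had 1 E-box, again CAGCTG. The Neurod1 window had 1 E-box, at -242, and those of Neurog1 and Neurog2 had 0. Among windows not printed, that of Neurod2 had 3 and that of Neurod6 had 2, while both Neurod4 starts had 0. An E-box occurred in 66.2% of 32851 windows of the same length, and CAGCTG in 13%, so its presence is common. These letters describe the windows and are not shown to be bound. Windows were used for 7 of the 9 members.

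Transcripts of most proneural members were absent or close to absent in both groups. Neurog1 and Neurog2, which initiate neuronal fate in dorsal progenitors, had 0 counts in all 6 libraries, which allows up to 0.0314 CPM over the 95789264 counts summed. Neurod2, a factor of maturing cortical neurons, had 2 counts in FOXR2 replicate 2 and 0 in the other 5 libraries. Neurod4, active in early neuronal precursors, had 2 counts in Control replicate 2 and 0 elsewhere. Neurod6, a marker of cortical projection neurons, had 3 and 4 counts in FOXR2 replicates 1 and 3 and 0 in the other 4 libraries. All 5 of these genes failed the filter on low counts. Where reads exist at all they are too few for a difference to be detectable at this depth, and no fold change is given. In bulk tumor RNA, fewer cells of a type and less RNA per cell cannot be told apart.

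**Figure D1:**
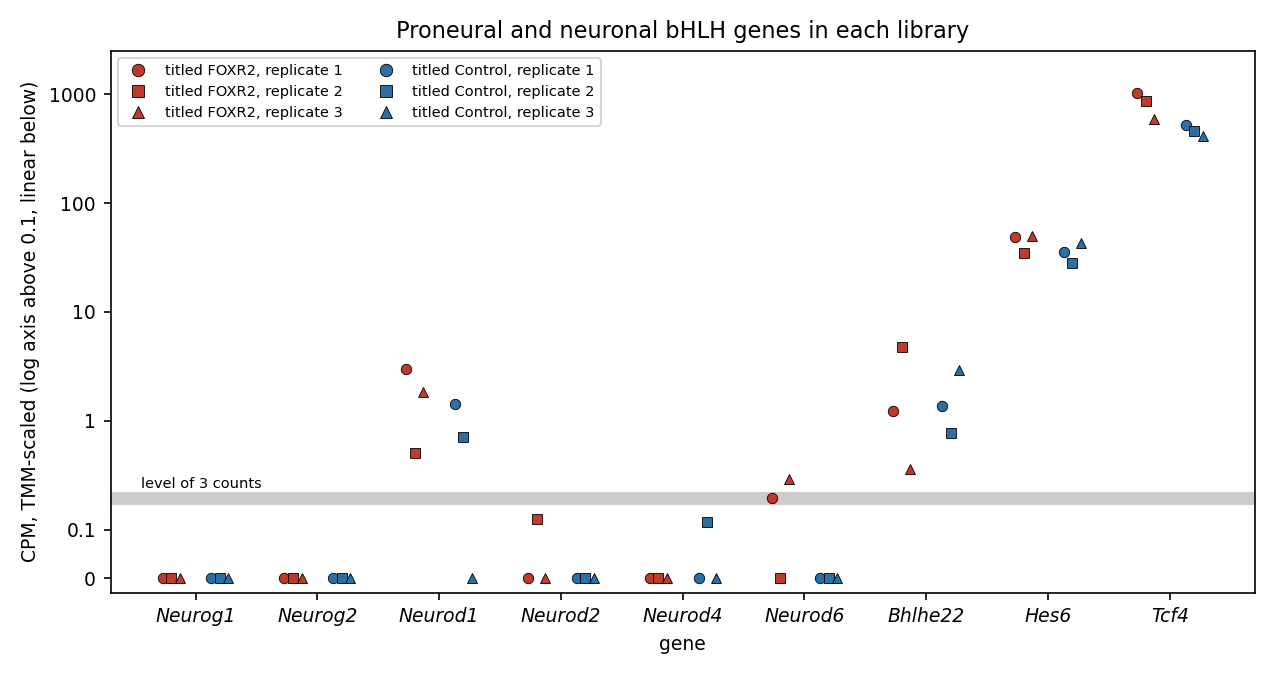
Levels of the 9 bHLH genes in each library, in TMM-scaled CPM on an axis that is logarithmic above 0.1 and linear below; red points are libraries titled FOXR2, blue points those titled Control, symbols mark the replicate, and the grey band is the level of 3 counts. Neurog1 and Neurog2 lie at 0 in all 6 libraries, Neurod1 and Bhlhe22 between 0 and 4.75 CPM, Hes6 between 28.0 and 49.3 CPM, and Tcf4 between 414 and 1018 CPM.

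The other 4 members passed the filter: Neurod1, Bhlhe22, Hes6 and Tcf4. All 4 were fitted above 0, and the edgeR quasi-likelihood test called 0 of them at an adjusted p under 0.05, where 2.29% of the 13101 genes tested were called. At an unadjusted p under 0.05 the count was 1 of 4, Tcf4, against 24.9% of all genes tested. DESeq2 called 1 of 4, again Tcf4, where it called 14.0% of all genes, and limma-voom called 0. The median log2 fold change of the 4, libraries titled FOXR2 minus those titled Control, was 0.57, beside 0.01 over all genes tested. A median over 4 genes that passed through their own levels says nothing on the 5 that did not pass.

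Tcf4, an E protein that pairs with proneural factors, had the highest CPM of the members and was the one whose groups did not overlap. Levels in FOXR2 replicates 1, 2 and 3 were 1018, 857 and 589 CPM. In Control replicates 1, 2 and 3 it stood at 521, 463 and 414 CPM. All 3 libraries titled FOXR2 lay above all 3 titled Control, and FOXR2 replicate 3 was nearest to them. Non-overlap in this direction was seen in 13.1% of all genes tested and in 1 of the 4 members. The means were 821 ± 216 against 466 ± 53.5 CPM (SD, n = 3 each), and the log2 fold change was 0.82 ± 0.24 (SE; edgeR unadjusted p = 0.0105, adjusted p = 0.102). DESeq2 gave an adjusted p of 0.0195, and the 12 other alternative fits gave adjusted p-values from 0.101 to 0.267 with log2 fold changes of 0.64 to 1.01. The exact two-sided permutation test over libraries gave p = 0.1, the smallest value that 3 against 3 allows. The genes with the most similar pattern over the 6 libraries were Cdca3, a regulator of entry into mitosis, and Csrnp3, with root mean square differences from Tcf4 of 0.05 and 0.08 on the centred log2 CPM scale. Cdca3 ran at 66.6, 56.2 and 40.3 CPM under the FOXR2 title and at 36.3, 29.7 and 28.8 under the Control title.

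Hes6, which relieves the block that Hes1 places on proneural factors, was the only other member above 5 CPM. Its level was 49.3, 34.7 and 49.3 CPM in FOXR2 replicates 1, 2 and 3. The libraries titled Control held 35.3, 28.0 and 43.3 CPM. The groups overlapped, since FOXR2 replicate 2 lay below Control replicates 1 and 3. The log2 fold change was 0.32 ± 0.24 (SE; edgeR adjusted p = 0.439) and did not pass the test, and the exact permutation test gave p = 0.3. Across libraries Hes6 varied little, with an SD of 0.32 on the log2 CPM scale, a spread that 31.8% of tested genes did not exceed. Its closest patterns were those of Nova2, a neuronal splicing regulator, at a root mean square difference of 0.06, and Klhl42 at 0.08. Nova2 itself ran at 64.2, 44.4 and 59.4 CPM against 48.6, 37.6 and 54.6.

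Neurod1, which drives newborn neurons to differentiate, was low and uneven. It had 46, 8 and 25 counts in FOXR2 replicates 1, 2 and 3, or 3.0, 0.506 and 1.82 CPM. Control replicates 1, 2 and 3 had 24, 12 and 0 counts, or 1.44, 0.715 and 0 CPM. FOXR2 replicate 2 lay below Control replicates 1 and 2, so the groups overlapped. The log2 fold change was 1.30 ± 1.15 (SE; edgeR adjusted p = 0.522), and it ranged from 0.64 with animal sex as a covariate to 2.29 without Control replicate 1. With an exact permutation test over libraries the difference gave p = 0.4. Its SD of 1.64 on the log2 scale was at least as large as that of 96.7% of tested genes, while its mean level was at least as high as that of only 4.6%. The most similar patterns belonged to Fam212b and to Ptprk, a receptor-type tyrosine phosphatase, at root mean square differences of 0.43 and 0.46. Both of these were also lowest in Control replicate 3, at 16.7 and 1.05 CPM.

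Bhlhe22, a transcriptional repressor of several neuron types, varied more within the groups than between them. Its counts were 19, 75 and 5 in FOXR2 replicates 1, 2 and 3, or 1.24, 4.75 and 0.365 CPM. In Control replicates 1, 2 and 3 there were 23, 13 and 50, or 1.38, 0.775 and 2.90 CPM. The highest and the lowest library both carried the FOXR2 title. The log2 fold change was 0.33 ± 0.91 (SE; edgeR adjusted p = 0.851; exact permutation p = 1 with 3 libraries a group), and it turned to -1.06 without FOXR2 replicate 2. FOXR2 replicate 2 and Control replicate 3, the highest for Bhlhe22, were also the highest for markers of mature oligodendrocytes. The sum of 8 such markers was 5390 CPM in FOXR2 replicate 2 and 4359 in Control replicate 3, and 231 to 1873 in the other 4. Among those 4 the orders differed. FOXR2 replicate 3, the lowest for Bhlhe22, had a sum of 1482, and the lowest sum was in FOXR2 replicate 1. Microglia and macrophage markers, 10 summed, reached 1128 CPM in FOXR2 replicate 2 and 4.76 to 13.9 in the other 5. Their part in the Bhlhe22 level was not tested. Rasa4, a RAS GTPase-activating protein, and S1pr3, a sphingosine-1-phosphate receptor, came closest in pattern, at root mean square differences of 0.28 and 0.29.

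**Figure D2:**
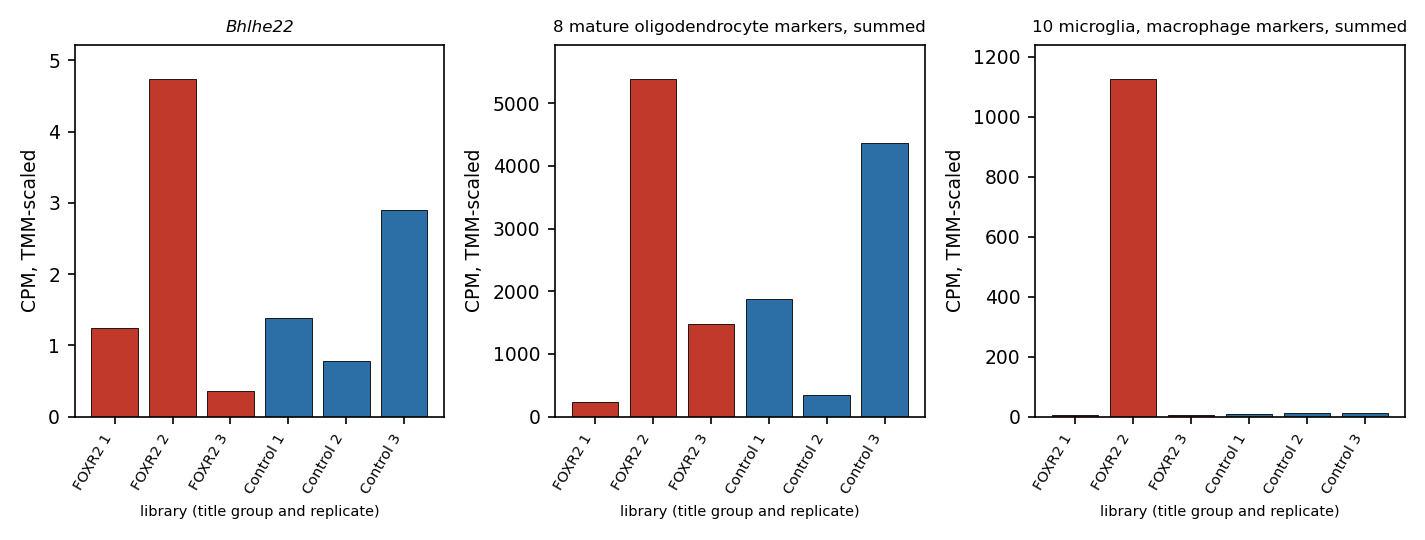
Bars give TMM-scaled CPM in each library for Bhlhe22, for the sum of 8 mature oligodendrocyte markers and for the sum of 10 microglia and macrophage markers; red bars are libraries titled FOXR2 and blue bars those titled Control. FOXR2 replicate 2 and Control replicate 3 are the highest for Bhlhe22 (4.75 and 2.90 CPM) and for the oligodendrocyte sum (5390 and 4359 CPM), and the microglia sum is high only in FOXR2 replicate 2 (1128 CPM).

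The 4 tested members did not share a pattern. Hes6 and Tcf4 were the closest pair, with a root mean square difference of 0.46 on the centred log2 CPM scale over 6 libraries. Neurod1 and Bhlhe22 were the farthest apart at 2.31. Divided by the length of all annotated exons, the order of mean levels in the libraries titled FOXR2 was Tcf4 at 30.0 ± 7.90, Hes6 at 24.6 ± 4.65, Neurod1 at 0.651 ± 0.457 and Bhlhe22 at 0.633 ± 0.693 CPM per kb (SD, n = 3 each). In those titled Control it was Hes6 at 19.6 ± 4.26, Tcf4 at 17.0 ± 1.96, Bhlhe22 at 0.504 ± 0.328 and Neurod1 at 0.263 ± 0.264 CPM per kb. Within each group Tcf4 and Hes6 lay within their spread of each other, as did Neurod1 and Bhlhe22. The exons of Tcf4 add up to 27382 bases over many alternative starts, more than a single transcript holds, so its level per kb is a low estimate.

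The other E protein genes, Tcf3 and Tcf12, did not pass the test. Their mean levels per kb were near that of Tcf4 for titled FOXR2 (30.0) and above it for titled Control (17.0). That scale depends on exon lengths, which were 4039 bases for Tcf3, 15529 for Tcf12 and 27382 for Tcf4. Without division by length, the means for titled FOXR2 were 133, 487 and 821 CPM. In CPM per kb, Tcf3 averaged 33.0 ± 4.42 for titled FOXR2 and 25.2 ± 2.0 for titled Control, with no overlap, and Tcf12 averaged 31.4 ± 6.50 and 25.3 ± 4.47 (SD, n = 3 each). Their log2 fold changes were 0.39 ± 0.18 and 0.31 ± 0.22 (SE; edgeR adjusted p = 0.226 and 0.43). Of this pair, 0 were called by edgeR, DESeq2 or limma-voom, and 0 had an unadjusted p under 0.05. Over all genes tested, edgeR called 2.29%, DESeq2 called 14.0%, and 24.9% had such an unadjusted edgeR p. Non-overlap with titled FOXR2 higher was seen in 13.1% of them. For so few genes, 0 called is near these shares and says little about E proteins. Whether Tcf4 differed more than Tcf3 or Tcf12 did was not tested.

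Among 10 other proneural and neuronal bHLH genes, 1 passed the filter, Atoh8, a distant relative of Atoh1. Its levels were 1.76, 3.23 and 4.6 CPM for titled FOXR2 against 1.14, 0.119 and 1.22 CPM for titled Control, in replicate order. The groups did not overlap, and Control replicate 2 was the lowest library. Over all genes tested, 13.1% did not overlap in this direction and 24.9% had an unadjusted edgeR p under 0.05. The log2 fold change was 1.94 ± 0.79 (SE; edgeR unadjusted p = 0.0432, adjusted p = 0.189), and neither edgeR, DESeq2 nor limma-voom called it. The 9 others failed the filter, and 5 of them, Atoh7, Neurog3, Ptf1a, Nhlh1 and Ferd3l, had 0 counts in all 6 libraries.

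**Figure D3:**
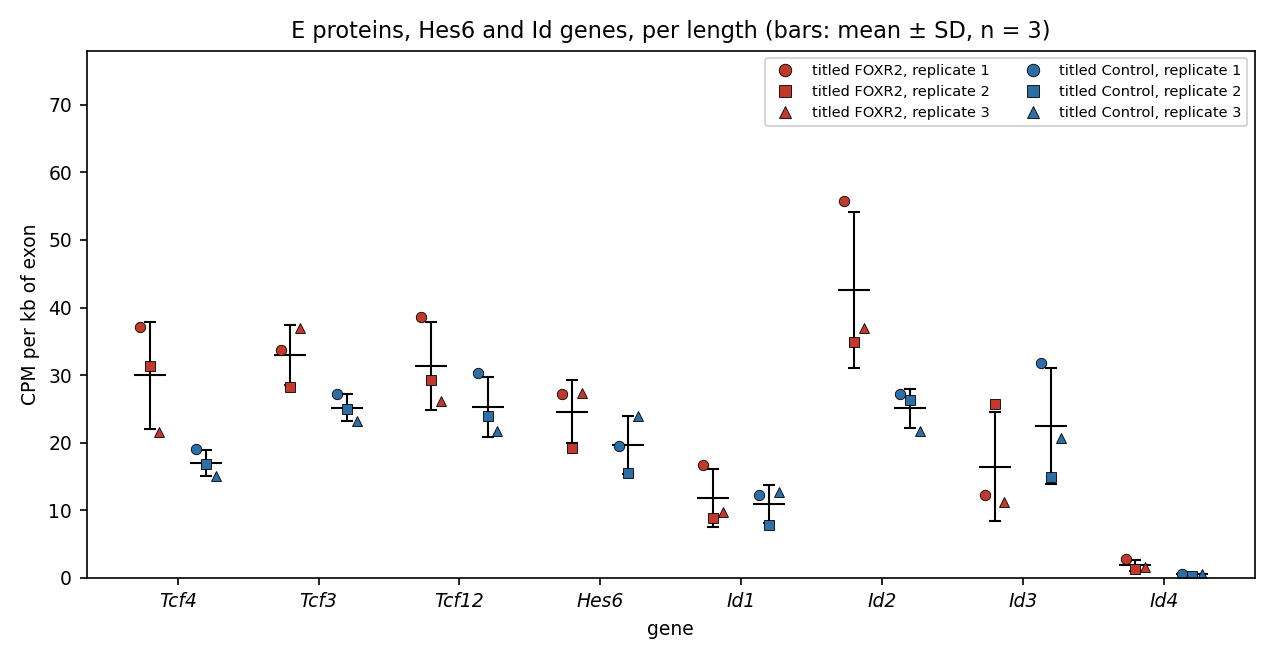
CPM per kb of annotated exon for the E protein genes Tcf4, Tcf3 and Tcf12, for Hes6 and for the Id genes; points are libraries (red titled FOXR2, blue titled Control, symbols for replicates) and bars give the mean ± SD of 3. For Tcf4, Tcf3, Id2 and Id4 the red and blue points do not overlap, while for Tcf12, Hes6, Id1 and Id3 they do. Non-overlap with titled FOXR2 higher was seen in 13.1% of all genes tested.

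Id genes, whose products hold E proteins away from DNA, differed from one to the next. All 4 were tested; 3 lay above 0 and the median log2 fold change was 0.43. EdgeR and limma-voom called 0 of them, DESeq2 called 2, and 2 had an unadjusted p under 0.05. Over all genes tested, DESeq2 called 14.0%, 24.9% had such an unadjusted edgeR p, and 13.1% did not overlap with titled FOXR2 higher. Id4 held 10.9, 5.06 and 5.91 CPM for titled FOXR2 against 2.4, 1.25 and 2.38 for titled Control, with no overlap (log2 fold change 1.85 ± 0.47, edgeR adjusted p = 0.0775). Id2 stood at 136, 85.2 and 90.0 against 66.2, 64.2 and 53.0 CPM, again with no overlap (0.76 ± 0.23, adjusted p = 0.109). For Id1 and Id3 the groups overlapped, with log2 fold changes of 0.11 ± 0.35 and -0.45 ± 0.40 (edgeR adjusted p = 0.874 and 0.527).

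Hes and Hey repressors were likewise uneven. Of 7 listed, 4 were tested, and the median log2 fold change was 0.39. EdgeR and limma-voom called 0 of the 4. DESeq2 called 1 and 1 had an unadjusted p under 0.05, beside 14.0% and 24.9% of all genes tested. Non-overlap with titled FOXR2 higher was seen in 2 of the 4 and in 13.1% of all genes tested. Hey1 stood at 60.7, 50.9 and 50.2 CPM for titled FOXR2 against 35.7, 21.9 and 37.1 for titled Control, with no overlap (0.77 ± 0.24, edgeR adjusted p = 0.114). Hey2 was low, at 5.74 to 7.53 against 1.01 to 5.69 CPM (1.30 ± 0.67, adjusted p = 0.275). Hes1 and Hes5, the main Notch effectors in neural progenitors, had log2 fold changes of 0.00 ± 0.43 and -0.15 ± 0.37 (edgeR adjusted p = 0.996 and 0.830).

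**Figure D4:**
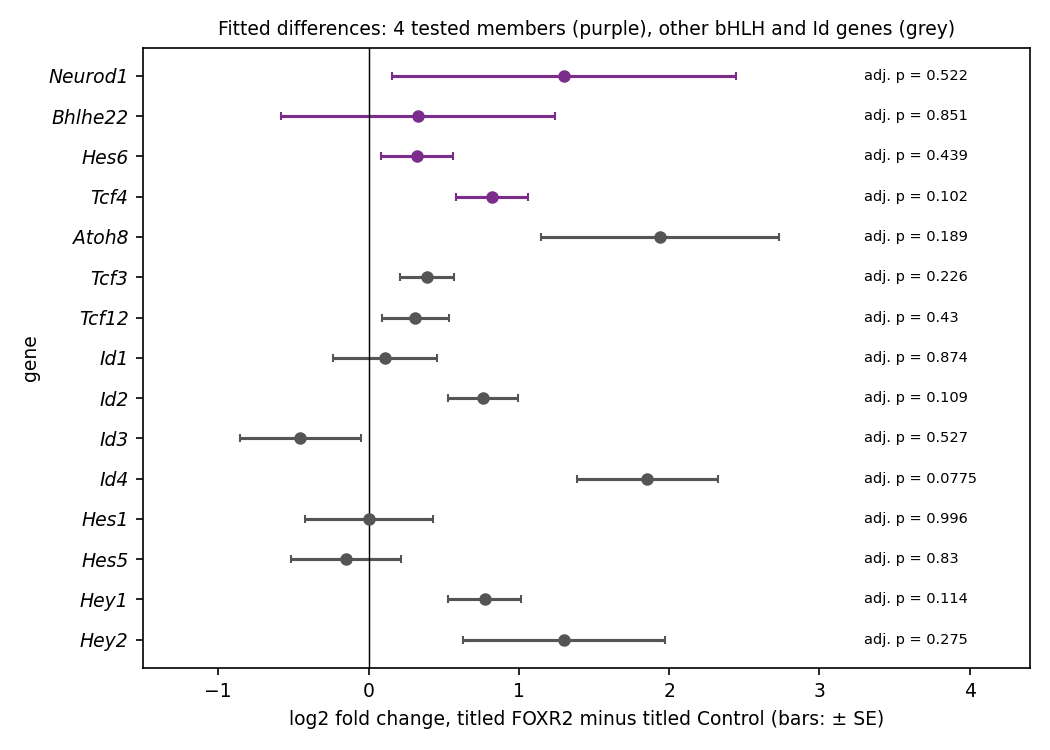
Log2 fold changes (libraries titled FOXR2 minus those titled Control) with standard errors and edgeR adjusted p-values for the 4 tested members in purple and for the other tested bHLH, Id, Hes and Hey genes in grey. Tcf4 lies at 0.82 ± 0.24 and Bhlhe22 at 0.33 ± 0.91, and 0 of the 15 genes reach an adjusted p under 0.05.

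Genes known to act downstream of proneural factors were mostly detected. Of 20 listed, 17 were tested; 13 of these lay above 0, and the median log2 fold change was 0.41. EdgeR and limma-voom called 0, DESeq2 called 4 of the 17, and 5 had an unadjusted p under 0.05, beside 14.0% and 24.9% of all genes tested; 50.7% of all genes lay above 0. The smallest edgeR p-values belonged to Sox11, Dcx, Tubb3 and Elavl4, with log2 fold changes of 1.29, 2.34, 1.46 and 1.51 (edgeR adjusted p = 0.0515, 0.0738, 0.0952 and 0.109). Dcx, which binds microtubules in migrating neurons, ran at 196, 157 and 209 CPM against 20.9, 16.0 and 74.5, and Sox11, a factor of newborn neurons, at 189, 176 and 310 against 80.8, 95.6 and 98.9, both with no overlap. Of the 17 tested, 3 did not overlap in this direction, beside 13.1% of all genes tested. Elavl4, a neuronal RNA-binding protein, ran at 65.0, 53.3 and 19.4 CPM for titled FOXR2 and at 14.3, 21.9 and 12.1 for titled Control, so FOXR2 replicate 3 lay below Control replicate 2. Some gave few reads. Eomes, a marker of cortical intermediate progenitors, had 13, 9 and 4 counts against 5, 2 and 1, and Tbr1, of early cortical projection neurons, had 0, 0 and 2 counts against 0, 6 and 0. The Notch ligand genes Dll1 and Dll3, by contrast, were detected in all 6 libraries, at 12.2 to 24.1 and 12.5 to 67.5 CPM.

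Cortical glutamatergic neuron genes were mostly low. Of 11 listed, 8 were tested, 5 of them above 0, and the median log2 fold change was 0.20. EdgeR and limma-voom called 0. DESeq2 called 1 of the 8 and 1 had an unadjusted p under 0.05, beside 14.0% and 24.9% of all genes tested. The vesicular glutamate transporter gene Slc17a7 stood at 0.38 to 0.718 CPM for titled FOXR2 and 0.536 to 1.69 for titled Control, and Slc17a6 had 1 count in all. Bcl11b, which also marks striatal neurons, stood at 11.3, 22.4 and 14.8 against 5.28, 5.84 and 7.38 CPM (log2 fold change 1.39 ± 0.34, edgeR adjusted p = 0.0720). Cux1 and Pax6 had log2 fold changes of 0.58 ± 0.37 and -1.13 ± 0.75 (edgeR adjusted p = 0.379 and 0.394).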

How the data were processed

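Poly(A)-selected RNA was sequenced as single reads with a strand-keeping kit, per the labels' protocols. The authors deposited whole-number read counts per gene symbol. TopHat, DESeq2 and the human build hg19 are named in the submitters' processing notes. For the counting tool, the annotation and the strand setting, the entry is "not given in the sources used here". Coordinates printed are those of RefSeq. Reads of near-identical or overlapping genes may be split. Groups came from the titles.

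The 24537 count rows entered edgeR 4.0.16 under R 4.3.3 (filterByExpr, count minimum 10; TMM; quasi-likelihood F test; no covariate), with Benjamini-Hochberg adjustment over the 13101 genes tested. Alternatives used DESeq2 1.42.0, limma-voom (limma 3.58.1), RLE factors, total-count scaling, no filter, a replicate block, animal sex read from Xist and Y-linked genes, and each library left out. Permutation tests used log2(CPM + 0.5). The fit was tested on simulated data with known changes. At an adjusted p under 0.05 it recovered 56 of 100 genes changed 4-fold and 3 of 100 changed 2-fold. A gene that was not called may thus still differ by 2-fold. Exon lengths came from GENCODE M21, matched by symbol. Named list genes are any with an adjusted p under 0.05 and the 4 with the smallest p in each pathway list. Of the list genes that failed the filter, only some are named or given counts. Similar patterns are the 2 nearest genes, by log2 CPM with a prior count of 2, whose mean reached 1 CPM, leaving out predicted genes, clones, pseudogenes and small RNAs. Marker lists are given as sums. Dll1, Dll3 and single markers were added after seeing values. A further bHLH gene is not reported here. The members and lists were chosen with earlier results of these data known. Whether all replicates are different animals is not in the labels. By Xist and Y-linked counts, FOXR2 replicate 2 and Control replicates 2 and 3 were female and the other 3 libraries male, so each group holds at least 2 animals; p-values refer to the spread among these 6 libraries, part of which could be technical.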

Additional observations from a re-analysis of the deposited data

How the results depend on the processing

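EdgeR called 300 genes in all, and 1837 were called by DESeq2, 7 with animal sex as a covariate (2398 at an unadjusted p under 0.05), and 1 to 205 when 1 library was left out (205 without FOXR2 replicate 2, at most 10 without any of the other 5). With the replicate number as a block edgeR called 0 (2652 at an unadjusted p under 0.05). Same-numbered libraries did not deviate together (correlations of -0.01, -0.23 and -0.01). With 3 libraries a group this cannot exclude that the numbers pair the samples, and the labels do not state a pairing. Other settings stayed within 1.5 times of 300. Of the bHLH members, DESeq2 called 1, Tcf4, and the 12 other alternatives called 0, with 1 member at an unadjusted p under 0.05 in each. Neurod1, Hes6 and Tcf4 were fitted above 0 in all 13 alternatives. Bhlhe22 turned to -0.10 with limma-voom and -0.0925 with the replicate block, and lay between -1.06 and 0.97 without 1 library. Its difference in the permutation test was -0.02 with a pseudocount of 0.5 CPM and 0.0561 with 2 CPM. The cause was not tested. Neurog1, Neurog2, Neurod2, Neurod4 and Neurod6 were all at or near 0 counts, too few for a difference to be detectable at this depth.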

Other observations

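Marker lists of neuronal, glial and other cell types were summed per library as CPM. Interneuron markers (8 genes) summed to 50.5, 6.64 and 16.8 in FOXR2 replicates 1, 2 and 3 and to 3.42, 8.76 and 6.45 in Control replicates 1, 2 and 3. Of these only Gad1 passed the filter, and Dlx5 and Dlx6 had 37 and 86 counts in FOXR2 replicate 3 but 10 each in FOXR2 replicate 1, and at most 1 each in the other 4 libraries. Cerebellar granule neuron markers (6 genes) summed to 82.7 to 493, most of it from Etv1, and Gabra6 had 0 counts. Zic1, which was chosen after its values were seen, had 289 counts in Control replicate 1 and at most 21 elsewhere. Mature neuron markers (8 genes) summed to 812 to 933 in the libraries titled FOXR2 and 656 to 757 in those titled Control, with Map2 the largest part. Of the 8, 6 were fitted above 0. EdgeR called 2 higher for titled FOXR2, Syt1 and Syn1, DESeq2 called 5 and limma-voom 0. Over all genes tested, edgeR called 2.29% and DESeq2 14.0%. The log2 fold changes of Syt1 and Syn1 were 4.08 and 1.32 (edgeR adjusted p = 0.0436 and 0.0489), and the calls were kept in 5 and 1 of 13 alternative fits, with adjusted p-values of up to 0.170 and 0.167. Rbfox3 had a log2 fold change of 3.08, Nefm of -1.73 and Nefl of -1.06 (edgeR adjusted p = 0.102, 0.102 and 0.25).

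Oligodendrocyte precursor markers (8 genes, the electroporated Pdgfra among them) summed to 6711 to 9258 and 5283 to 6077, and astrocyte markers (8 genes) to 617 to 1818 and 603 to 835. Of the precursor list edgeR and limma-voom called 0 and DESeq2 1, and the smallest p was that of Ptprz1 (log2 fold change 1.01, edgeR adjusted p = 0.0536). Of the astrocyte list edgeR called 1, Slc1a2 (1.74, adjusted p = 0.0379; called in 6 of 13 alternatives, adjusted p up to 0.158), DESeq2 2 and limma-voom 1. For both lists the shares over all genes tested were 2.29% with edgeR and 14.0% with DESeq2. Aldh1l1 lay the other way, at 18.2, 66.7 and 12.5 CPM for titled FOXR2 against 145, 95.7 and 78.4 for titled Control (-1.71, edgeR adjusted p = 0.150; called in 2 of 13 alternatives), and Slc1a3 and Gja1 had log2 fold changes of 1.05 and -1.95 (edgeR adjusted p = 0.175 and 0.246). Endothelial, pericyte and ependymal lists stayed at or below 15.2, 13.1 and 8.86 in every library, and red blood cell genes at or below 0.298. Of the 5 red blood cell genes, 4 (Hba-a1, Hba-a2, Hbb-bs and Hbb-bt) had 0 counts in all 6 libraries, so that sum is Alas2 alone.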
